A study of Mus musculus with 24 samples.

Results

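The Polycomb genes followed here were Ezh2, Eed, Suz12, Jarid2, Mtf2, Rnf2, Ring1, Cbx7, Pcgf6 and Bmi1, 10 of the 47937 genes counted in nuclear RNA of mouse embryonic stem (ES) cells. They were chosen by name, and all 10 were found in both count tables and passed the filter on low counts in both. Counts came from 8 libraries of RNA-seq and 16 of MeRIP-seq, a method in which an antibody against N6-methyladenosine (m6A) pulls down methylated RNA fragments (IP) for comparison with the RNA that went in (input). WT26 was the wild type control of *Mettl14* KO, and RBC was that of *Mettl3* KO, with 2 replicates per line and assay. The study's methods call the MeRIP-seq replicates biological. The labels do not say whether replicates were separate cultures, and p-values measure the spread between these libraries. Both controls had a 129/Sv × C57Bl6 background. RBC carried Rosa26 BirA-V5 and Cre-ERT2, and so did the *Mettl3* KO cells made from it, whereas neither construct is given for WT26 or *Mettl14* KO. Each knockout was a single clone. The *Mettl14* KO clone, A10, was derived from WT26 with CRISPR/Cas9 and carries a small homozygous deletion that shifts the reading frame and truncates the protein, and the *Mettl3* KO clone was 2c4d. All cells grew on gelatin in medium with serum replacement and LIF.

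Polycomb proteins keep developmental genes silent in ES cells through a pair of complexes that modify histones. Polycomb repressive complex 2 (PRC2) methylates histone H3 at lysine K27 (H3K27me3) through Ezh2 or Ezh1, bound to Eed and Suz12, while Polycomb repressive complex 1 (PRC1) ubiquitinates histone H2A through Ring1 or Rnf2. Mettl3 and Mettl14 form the enzyme that places most m6A on messenger RNA, largely in long exons and around stop codons, where it can change how long a transcript lasts.

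RNA-seq totals lay between 11321459 and 13743181 reads and MeRIP-seq totals between 9394163 and 28441282. Over all features the spread between replicates was larger than counting error. Ring1 had only 125 to 203 reads in the RNA-seq libraries, where counting error weighs more. The RBC replicates of RNA-seq stood further apart than those of the other lines, with a chi-square of 39.8 per degree of freedom against 2.95 to 6.31. In MeRIP-seq the second IP library of every line deviated from the first in the same way (correlations of the deviations 0.60 to 0.81 over 13662 features). Mettl14 counts were 297 and 316 in *Mettl14* KO against 401 and 358 in WT26 (adjusted p = 0.00609), and Mettl3 counts were 880 and 821 in *Mettl3* KO against 928 and 979 in RBC (adjusted p = 0.0588). A count over the whole gene does not resolve a small deletion, so these values do not check the genotype. All 10 ES cell markers had a mean of at least 50 counts in every line. Their summed count was 27737 to 27921 in *Mettl14* KO against 39628 to 40508 in WT26, and 21881 to 22330 in *Mettl3* KO against 35639 to 35860 in RBC. Of 10 fibroblast markers, 3 or 4 had no count in either library of a line, and their summed count was 306 to 545. The summed count of 10 trophoblast markers was 407 to 704, and of 5 tested 1 rose and 1 fell in each knockout. In bulk RNA, fewer cells of a type and less RNA per cell cannot be told apart.

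The genes lie apart from each other in the genome (GRCm38, GENCODE M21). Among the PRC2 genes, Eed is at chr7:89954654-89980983 and Ezh2 at chr6:47530139-47595341, both on the minus strand. Suz12 is at chr11:79993106-80034123, Jarid2 at chr13:44729474-44921643 and Mtf2 at chr5:108065674-108109004, all on the plus strand. Among the PRC1 genes, Ring1 is at chr17:34020792-34024680, Rnf2 at chr1:151458004-151500955, Cbx7 at chr15:79915807-79971119 and Pcgf6 at chr19:47033617-47050906, all on the minus strand, and Bmi1 is at chr2:18677018-18686629 on the plus strand. Of these genes, 6 share between 100 and 395 exonic bases with a gene on the other strand, and whether the counting used strand is not given. Beside Eed this gene is E230029C05Rik (261 bases shared), which had 5.8 to 32.2 normalized counts in RNA-seq. Its log2 fold change was -2.05 in *Mettl14* KO (adjusted p = 0.000159) and -0.11 in *Mettl3* KO (adjusted p = 0.761).

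The letters GGACT, a common form of the sequence that the Mettl3 and Mettl14 enzyme methylates, were searched on the transcript strand of 1 protein-coding transcript per gene. Within 200 bases on either side of the stop codon they occurred in Eed, Mtf2, Rnf2 and Bmi1, 4 of the 10 genes, against 39.6% of 14672 protein-coding genes tested in MeRIP-seq. Suz12 had none in its whole transcript of 4373 bases, and Jarid2 had the most, 7 in 5997 bases. The match closest to the stop codon is printed for the genes that stood at either end of the IP measurements, 25 bases each, 5′ to 3′ on the transcript strand, with the match in capitals. A match marks these letters and is not evidence of a methylated site.
Ring1: ggttctgctcGGACTgcatcgtcac
Bmi1: catctggttaGGACTgttaaggaaa
Cbx7: taggggcatgGGACTaaatgcctgt
Eed: cttcctgctcGGACTttactgcttt
Ezh2: agagaagcagGGACTgaaactgggg
The Ring1 window is at chr17:34023308-34023332 in the coding sequence, 1004 bases before the stop codon, and holds the only GGACT of that transcript. The Bmi1 window, at chr2:18684471-18684495, overlaps the stop codon itself. The Cbx7 window, at chr15:79916679-79916703, lies in the 3′ UTR, 1625 bases after the stop codon. The Eed window, at chr7:89954754-89954778, is also in the 3′ UTR, 168 bases after the stop codon, and that of Ezh2, at chr6:47545733-47545757, is 1080 bases before it in the coding sequence.

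Normalized RNA-seq counts per kb of exon placed Mtf2 and Jarid2 at the top in all 4 lines and Bmi1 and Ring1 at the bottom. In WT26, Mtf2 stood at 1004 ± 39.1 counts per kb (SD, n = 2), followed by Jarid2 at 917 ± 21.0, Eed at 681 ± 6.10, Suz12 at 643 ± 41.3 and Cbx7 at 561 ± 7.41. Ezh2 (276 ± 6.67), Rnf2 (243 ± 17.1), Pcgf6 (154 ± 16.6), Bmi1 (81.6 ± 4.96) and Ring1 (44.6 ± 3.90) came after them. No neighbouring genes in this order overlapped between libraries in WT26. Eed ranked 3 in WT26 and RBC and 5 in both knockouts, behind Suz12 and Cbx7. Suz12 and Cbx7 overlapped in RBC and in *Mettl14* KO, as did Rnf2 and Ezh2 in *Mettl14* KO. The exon lengths are those of all annotated exons joined, between 3.24 kb for Ring1 and 9.71 kb for Jarid2.

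**Figure D1:**
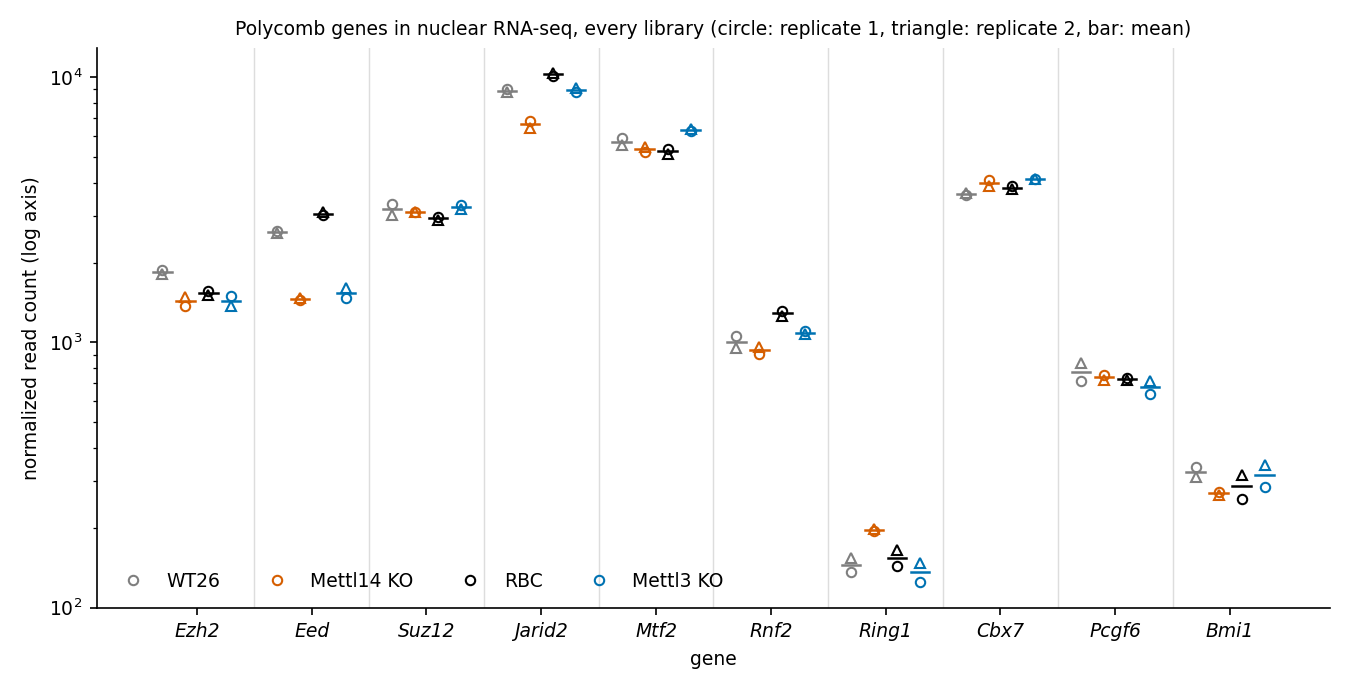
Normalized RNA-seq counts (log axis) of the 10 Polycomb genes in each of the 8 libraries, with replicate 1 as circles, replicate 2 as triangles and the mean of each line as a bar. Eed lies between 1445 and 1597 in the knockouts and between 2589 and 3107 in the control lines, and most other genes differ far less between lines.

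Eed fell in both knockouts, and its log2 fold change was the largest in size among the 10 genes in each. In *Mettl14* KO, Eed, Ezh2, Jarid2 and Bmi1 fell while Ring1 and Cbx7 rose. In *Mettl3* KO, Eed, Jarid2 and Rnf2 fell while Suz12 and Mtf2 rose. So 4 of 10 were lower and 2 of 10 higher in *Mettl14* KO (adjusted p at most 0.05), against 27% lower and 25.5% higher among all 17021 genes tested. In *Mettl3* KO 3 of 10 were lower and 2 of 10 higher, against 28.1% and 25.2% of all genes. Eed and Jarid2 were lower in both knockouts, which was so for 13.3% of all genes, and none of the 10 was higher in both, against 10.1%. With 10 genes, shares of 2 to 4 lie close to those of all genes. Their median log2 fold change was -0.10 in each knockout, with 0.00 for all genes. No Polycomb gene passed with a log2 fold change over 1 in size (among all genes, 14.5% did for *Mettl14* KO and 13.6% for *Mettl3* KO). The ES cell markers moved at the same time, with 10 of 10 lower in *Mettl14* KO and 9 of 10 lower in *Mettl3* KO, and their part in these differences was not tested.

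Eed encodes the PRC2 subunit that binds H3K27me3 and stimulates the enzyme. Its normalized counts were 2622 and 2589 in WT26 and 1445 and 1466 in *Mettl14* KO. They were 3011 and 3107 in RBC against 1468 and 1597 in *Mettl3* KO. Every knockout library thus lay below every control library, and RBC lay above WT26. The log2 fold change was -0.84 ± 0.048 (SE) in *Mettl14* KO, 55.9% of the WT26 level (adjusted p = 1.49e-10). In *Mettl3* KO it was -1.0 ± 0.048, or 50.1% of RBC (adjusted p = 1.31e-11). Leaving out any library, or using DESeq2 or another scaling, kept both falls past the threshold. The falls differed by -0.16 between knockouts (95% confidence interval -0.30 to -0.02, adjusted p = 0.0674), which did not pass. Without *Mettl3* KO replicate 2 this difference passed (-0.22, adjusted p = 0.0132, range over 15 alternatives 0.0132 to 0.867).

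Ezh2, the methyltransferase itself, had 1873 and 1810 normalized counts in WT26 and 1369 and 1488 in *Mettl14* KO. RBC gave 1565 and 1503, against 1498 and 1374 for *Mettl3* KO. The WT26 libraries stood above the other 6, which lay in a narrow band. Ezh2 fell in *Mettl14* KO (log2 fold change -0.37 ± 0.056, adjusted p = 2.56e-05). In *Mettl3* KO its log2 fold change of -0.09 ± 0.056 did not pass (adjusted p = 0.172). Without *Mettl3* KO replicate 1 it did (-0.155, adjusted p = 0.0489, range over 12 alternatives 0.0489 to 0.729), and by library size it was 0.059. The difference between the knockouts was 0.27 (adjusted p = 0.00955), and RBC was itself lower than WT26 (-0.26 ± 0.056, adjusted p = 0.000994).

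Suz12, the subunit that holds PRC2 together, was the most even of the core genes, with normalized counts between 2894 and 3323 in all 8 libraries. *Mettl14* KO, at 3103 and 3106, lay between the WT26 libraries at 3323 and 3034 (log2 fold change -0.03 ± 0.051, 95% confidence interval -0.14 to 0.07, adjusted p = 0.591). *Mettl3* KO, at 3309 and 3173, lay above RBC at 2974 and 2894 (0.14 ± 0.051, adjusted p = 0.0239). That rise did not pass with DESeq2 (adjusted p = 0.0575, range over 12 alternatives 0.000155 to 0.151) or without either RBC library or *Mettl3* KO replicate 1 (adjusted p = 0.0652, 0.151 and 0.105).

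The accessory subunits Jarid2 and Mtf2 define separate forms of PRC2 and help bring it to its target genes. Jarid2 had 9055 and 8767 normalized counts in WT26 and 6854 and 6438 in *Mettl14* KO. RBC gave 10130 and 10360, against 8817 and 9099 for *Mettl3* KO. The knockouts did not overlap their controls, and *Mettl3* KO lay at the level of WT26. The log2 fold changes were -0.42 ± 0.053 in *Mettl14* KO (adjusted p = 2.67e-06) and -0.19 ± 0.052 in *Mettl3* KO (adjusted p = 0.00456). With counts scaled by library size the latter was -0.04 (adjusted p = 0.509, range over 12 alternatives 0.000206 to 0.509). The falls differed by 0.23 (adjusted p = 0.0186).

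Mtf2 had 5881 and 5566 normalized counts in WT26 and 5235 and 5470 in *Mettl14* KO, with no overlap but a log2 fold change of only -0.10 ± 0.051 (adjusted p = 0.125). It had 5387 and 5145 in RBC against 6256 and 6354 in *Mettl3* KO, where it rose by 0.26 ± 0.051 (adjusted p = 0.000359). *Mettl3* KO held the highest Mtf2 counts of the 4 lines. The difference between knockouts was 0.36 ± 0.073 (adjusted p = 0.000684).

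Ring1 and Rnf2 encode the alternative ubiquitin ligases of PRC1, and each passed the test in a different knockout. Ring1 had the fewest counts of the 10 genes, 136 and 154 in WT26 against 194 and 198 in *Mettl14* KO. RBC gave 144 and 165, against 124 and 147 for *Mettl3* KO. The *Mettl14* KO libraries stood above the other 6. Ring1 rose by 0.44 ± 0.13 in *Mettl14* KO (136% of WT26, adjusted p = 0.00715), and its value in *Mettl3* KO was -0.19 ± 0.13 (adjusted p = 0.232). The difference between knockouts was -0.64 ± 0.18 (adjusted p = 0.00942). With DESeq2 neither the rise (adjusted p = 0.0522, range over 12 alternatives 0.00265 to 0.0845) nor the difference (0.0644, range over 15 alternatives 0.00330 to 0.0644) passed, and the rise was lost without WT26 replicate 1 (0.0845).

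Rnf2, the more abundant of the pair per kb of exon in every line, had 1054 and 955 normalized counts in WT26 and 904 and 962 in *Mettl14* KO, which overlapped (log2 fold change -0.11 ± 0.062, adjusted p = 0.156). It had 1315 and 1263 in RBC against 1107 and 1072 in *Mettl3* KO, a fall of -0.24 ± 0.060 (84.6% of RBC, adjusted p = 0.00257). RBC was above WT26 by 0.36 ± 0.061 (adjusted p = 0.000137), so that the Rnf2 level of *Mettl3* KO lay above that of both WT26 libraries. Scaled by library size the fall in *Mettl3* KO was -0.09 (adjusted p = 0.250, range over 12 alternatives 0.000708 to 0.250). The difference between the knockouts, -0.13 ± 0.086, did not pass (adjusted p = 0.225).

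The remaining PRC1 genes encode subunits that set which form of the complex assembles. Cbx7, which reads H3K27me3 in the canonical form of ES cells, had 3607 and 3675 normalized counts in WT26 and 4101 and 3890 in *Mettl14* KO (0.13 ± 0.048, adjusted p = 0.0251). RBC gave 3883 and 3792, against 4117 and 4116 for *Mettl3* KO (0.10 ± 0.048, adjusted p = 0.0834). Neither knockout overlapped its control. The *Mettl14* KO call was lost without WT26 replicate 1, WT26 replicate 2 or *Mettl14* KO replicate 1 (adjusted p = 0.124, 0.0639 and 0.206) and by library size (0.0742), with a range of 0.0151 to 0.206 over 12 alternatives. Apobec3, which shares 100 exonic bases with Cbx7 on the other strand, had 258 to 560 counts and went the other way in *Mettl14* KO (-1.06, adjusted p = 2.98e-08). In *Mettl3* KO the log2 fold change of Apobec3 was 0.27 (adjusted p = 0.0176), the same direction as that of Cbx7.

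Bmi1, another subunit of canonical PRC1, had 338 and 310 normalized counts in WT26 and 272 and 266 in *Mettl14* KO (-0.27 ± 0.11, adjusted p = 0.0491). That call sat at the threshold and was lost with DESeq2 (0.154), with TMM (0.0523) and on leaving out any 1 of the 4 libraries (0.0527 to 0.244), with a range of 0.0170 to 0.244 over 12 alternatives. Its counts in *Mettl3* KO, 285 and 346, overlapped those of RBC, 258 and 317 (0.12 ± 0.11, adjusted p = 0.371). Pcgf6, a subunit of a variant form of PRC1, lay between 638 and 834 normalized counts in all libraries. Its log2 fold changes were -0.07 ± 0.078 in *Mettl14* KO (adjusted p = 0.493) and -0.11 ± 0.079 in *Mettl3* KO (adjusted p = 0.259).

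**Figure D2:**
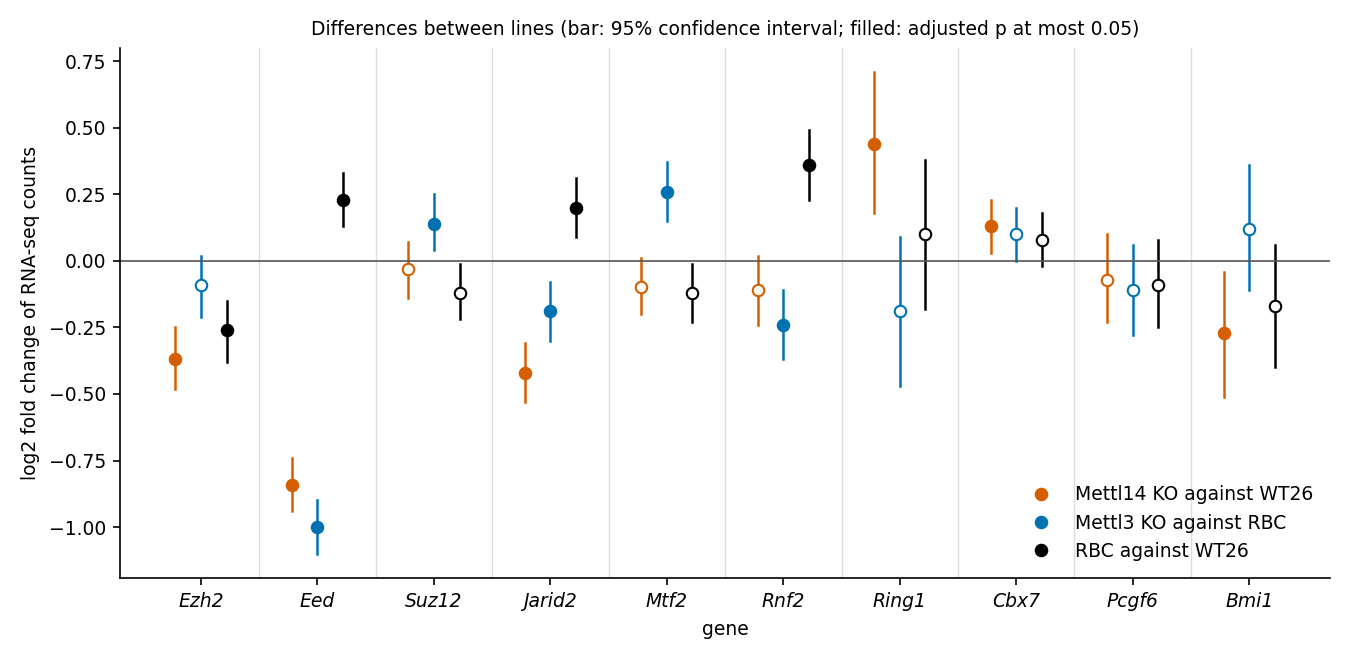
Log2 fold change of RNA-seq counts with its 95% confidence interval for each Polycomb gene in *Mettl14* KO against WT26, *Mettl3* KO against RBC, and RBC against WT26, filled where the adjusted p was at most 0.05. Eed stands at -0.84 and -1.0 in the knockouts and at 0.23 between the control lines.

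The control lines also differed from each other. Between RBC and WT26, Eed (0.23 ± 0.047), Jarid2 (0.20 ± 0.052) and Rnf2 were higher in RBC and Ezh2 was lower, 3 of 10 and 1 of 10, against 19.7% and 19.2% of all genes. The Jarid2 call was lost without WT26 replicate 2 (adjusted p = 0.0523, range over 12 alternatives 0.000165 to 0.430), and by library size neither Eed (0.152) nor Jarid2 (0.430) passed. Of the 10 genes 4, Ezh2, Jarid2, Mtf2 and Ring1, differed between the knockouts in the size or direction of their change, against 43.2% of all genes. The split between higher and lower calls moved with the scaling. By library size, *Mettl3* KO had 4 Polycomb genes higher and 1 lower (63.7% of the calls over all genes were higher, against 47.3% by size factors), and RBC against WT26 had 1 higher and 5 lower (28.3% against 50.6%). Under that scaling the median log2 fold change of all genes was 0.149 and -0.155 in these comparisons, so the Polycomb genes shifted with it.

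In MeRIP-seq, the question was how far each transcript was enriched in the IP relative to the other transcripts, and whether the knockouts changed that. Ring1 was the only Polycomb gene enriched in the IP (log2 fold change above 1, adjusted p at most 0.05), and it passed in WT26, *Mettl14* KO and RBC but not in *Mettl3* KO. Cbx7 and Bmi1 leaned to the IP in most pairs of libraries. Ezh2 and Eed leaned the other way, with fewer normalized counts in the IP than in the input in WT26, *Mettl14* KO and RBC. Thus 1 of 10 was enriched in WT26 against 14.5% of all 22621 features, 1 of 10 in *Mettl14* KO against 11.9%, 1 of 10 in RBC against 13.4%, and 0 of 10 in *Mettl3* KO against 2.54%. At the adjusted p, 0 of 10 lay below the input, against 16.1% of features in WT26, 12% in *Mettl14* KO and 13.1% in RBC. That count is from the fit without a block on the replicate number. The block used below had a term each for input and IP and was chosen after seeing the data. With it, Ezh2 and Eed lay below the input in WT26, *Mettl14* KO and RBC, Mtf2 in *Mettl14* KO, and Rnf2 in both knockouts, as given for each gene in turn. At an unadjusted p under 0.05, 3, 1 and 4 of the 10 passed in WT26, *Mettl14* KO and RBC in either direction and 0 in *Mettl3* KO. Of all 22621 features, 10440, 9329, 9807 and 5803 did so in these 4 lines. DESeq2 called the same number of the 10 genes enriched as edgeR in each line.

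Ring1 had 106 and 103 normalized counts in the input of WT26 and 193 and 246 in the IP, log2 ratios of 0.86 and 1.25. In *Mettl14* KO the input had 101 and 65.2 and the IP 171 and 280, ratios of 0.76 and 2.10. The value of 65.2 stood for 31 reads, and the other Ring1 inputs for 65 to 135 reads. RBC had 78.7 and 83.3 against 157 and 276, ratios of 1.0 and 1.73. In *Mettl3* KO the input had 86.3 and 104 and the IP 130 and 187, ratios of 0.59 and 0.84. All 8 pairs were above 0, and those of *Mettl3* KO were the lowest within each replicate number. The fitted log2 fold changes were 1.06 ± 0.35 in WT26 (adjusted p = 0.0317), 1.41 ± 0.36 in *Mettl14* KO (0.0162), 1.41 ± 0.35 in RBC (0.0143) and 0.73 ± 0.35 in *Mettl3* KO (0.204). With a block on the replicate number for input and IP, *Mettl3* KO came to 0.72 ± 0.22 (adjusted p = 0.0188), still under a log2 fold change of 1. The call was lost without either WT26 pair (adjusted p = 0.0951 and 0.416), without replicate 2 of *Mettl14* KO (0.468) and without replicate 2 of RBC (0.437). Ring1 carried the GGACT printed above in its coding sequence and none near its stop codon.

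Bmi1 had log2 ratios of 0.29 and 1.0 for WT26, 0.52 and 1.06 for *Mettl14* KO, 0.71 and 1.05 for RBC, 0.78 and 0.64 for *Mettl3* KO. Cbx7 had 0.19 and 0.89 for WT26, 0.19 and 0.91 for *Mettl14* KO, 0.13 and 1.0 for RBC, -0.01 and 0.59 for *Mettl3* KO. In the second replicates the Cbx7 ratio was far higher than in the first, in every line. Neither gene passed in any line as fitted (adjusted p 0.103 to 0.295 for Bmi1 and 0.145 to 0.560 for Cbx7). With the block the adjusted p fell to 0.00238 to 0.0142 for Bmi1 in the 4 lines and to 0.00561 to 0.00708 for Cbx7 in WT26, *Mettl14* KO and RBC, at log2 values of 0.54 to 0.88.

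Ezh2 had log2 ratios of -0.67 and -1.72 for WT26, -0.43 and -1.53 for *Mettl14* KO, -0.38 and -1.70 for RBC, -0.08 and -0.40 for *Mettl3* KO. Eed had -0.40 and -0.98 for WT26, -0.23 and -0.87 for *Mettl14* KO, -0.31 and -1.03 for RBC, 0.03 and -0.04 for *Mettl3* KO. For both genes the *Mettl3* KO ratios were the nearest to 0 within each replicate number. The fitted values of Ezh2 were -1.07 ± 0.42 for WT26, -0.88 ± 0.42 for *Mettl14* KO, -0.93 ± 0.42 for RBC and -0.23 ± 0.42 for *Mettl3* KO. None passed as fitted (adjusted p = 0.0631, 0.128, 0.105 and 0.767), and the first 3 did with the block (2.87e-05, 0.000256 and 0.000123). Eed had -0.65 ± 0.29 for WT26, -0.54 ± 0.29 for *Mettl14* KO, -0.62 ± 0.29 for RBC and 0 ± 0.29 for *Mettl3* KO (adjusted p = 0.0926, 0.166, 0.113 and 0.999). With the block the first 3 passed (adjusted p = 0.00559, 0.0250 and 0.00770). Scaled by library size without the block, values in WT26, *Mettl14* KO and RBC were nearer to no difference. They were -0.63, -0.44 and -0.50 for Ezh2 and -0.22, -0.11 and -0.17 for Eed.

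The other 5 genes had log2 ratios between -0.69 and 0.37 in the 8 pairs. In *Mettl3* KO, Rnf2 had the lowest fitted value of the 10 genes (-0.41 ± 0.20, adjusted p = 0.208). Jarid2, which has 7 GGACT, had ratios of 0.13 to 0.37 in WT26, *Mettl14* KO and RBC and 0.01 and -0.08 in *Mettl3* KO. Suz12, which has none, had ratios between -0.31 and 0.29 in the 8 pairs. Mtf2 lay below its input in all 8 pairs, between -0.69 and -0.17, and Rnf2 likewise, between -0.58 and -0.01. With the block both genes were below the input in *Mettl14* KO (adjusted p = 0.0184 for Mtf2 and 0.0424 for Rnf2), and Rnf2 also in *Mettl3* KO (0.0309). Scaled by library size without the block, Mtf2 was at -0.02 and Rnf2 at 0.06 in *Mettl14* KO, and Rnf2 at -0.03 in *Mettl3* KO. That scaling moved the median of all features to 0.432 in *Mettl14* KO and 0.359 in *Mettl3* KO. Pcgf6 lay between -0.39 and 0.17.

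**Figure D3:**
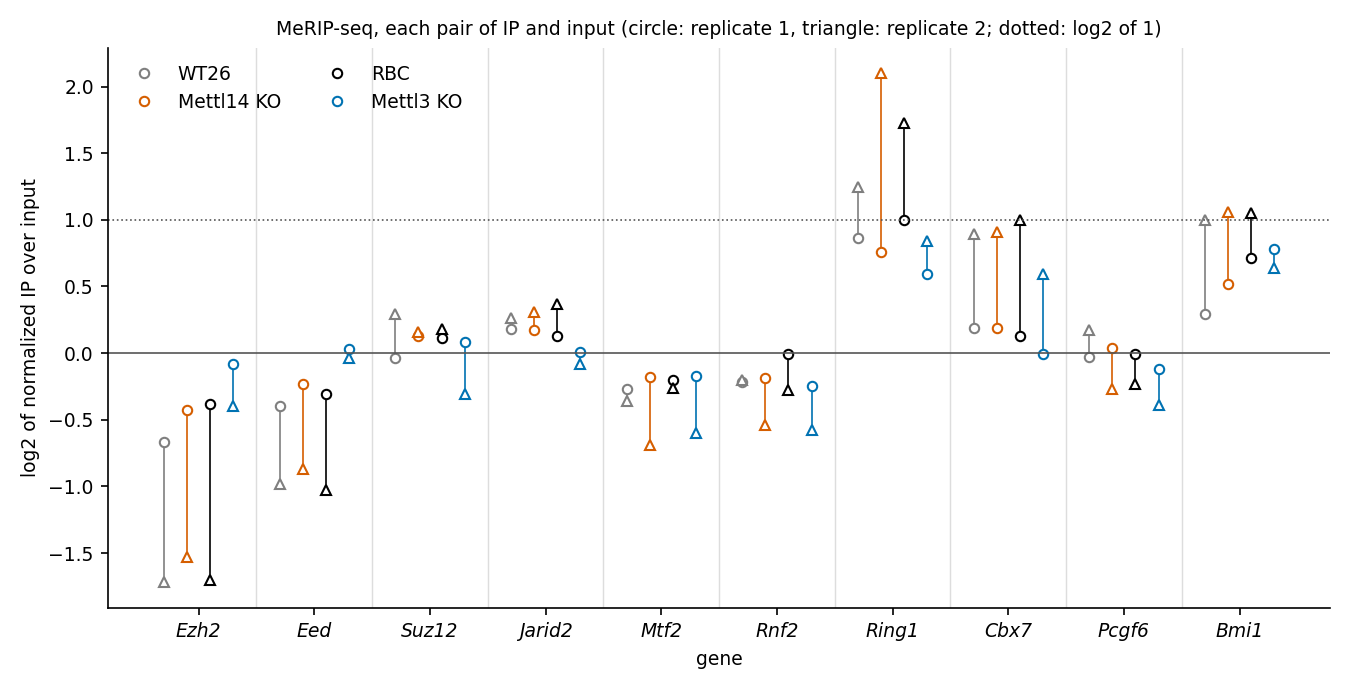
Log2 of normalized IP over input counts for each pair of MeRIP-seq libraries, with replicate 1 as circles and replicate 2 as triangles, a line joining the 2 replicates of a line, and a dotted line at a log2 of 1. Ring1 is above 0 in all 8 pairs, and Ezh2 and Eed are below 0 in WT26, *Mettl14* KO and RBC. In those lines replicate 2 is further from 0 than replicate 1 for each of these genes. In *Mettl3* KO this also holds for Ring1 and Ezh2, while Eed is at 0.03 and -0.04.

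No Polycomb gene passed the test for a change of IP over input between lines. In *Mettl14* KO against WT26 the changes lay between -0.17 and 0.34 (median 0.01, 0.02 over all features), and 0 of 10 genes passed against 0% of all 22621 features. At an unadjusted p under 0.05 the counts were 0 of 10 and 126 features, and DESeq2 called 0 of 10 and 1 feature. In *Mettl3* KO against RBC the changes lay between -0.68 for Ring1 and 0.70 for Ezh2 (median -0.24, 0.01 over all features). There, 0 of 10 passed against 0% of all features, with 0 of 10 and 787 features at an unadjusted p under 0.05 and 0 and 0 by DESeq2. RBC against WT26 gave 0 of 10 against 0%, 0 of 10 and 133 features unadjusted, and 0 and 0 by DESeq2.

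The largest changes in *Mettl3* KO moved the ratios towards 0. Ezh2 changed by 0.30 and 1.30 in the 2 replicates (fitted 0.70 ± 0.59, 95% confidence interval -0.56 to 1.97, adjusted p = 0.854). Eed changed by 0.34 and 0.99 (0.61 ± 0.40, -0.25 to 1.48, adjusted p = 0.854) and Ring1 by -0.41 and -0.88 (-0.68 ± 0.49, -1.74 to 0.38, adjusted p = 0.854). Both replicates had the same sign for each of these genes. With the block the adjusted p was 0.125 for Ezh2, 0.182 for Eed and 0.264 for Ring1. In *Mettl14* KO the same genes changed by 0.25 and 0.19 (Ezh2), 0.17 and 0.11 (Eed) and -0.10 and 0.85 (Ring1). The intervals as fitted do not exclude a change of 1 in size on the log2 scale for these genes in *Mettl3* KO.

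The input libraries give another measure of transcript level from separate libraries of the same lines. Eed was lower in both knockouts there too, although the test over all features did not pass as fitted. Its input counts were 1552 and 1399 in WT26 and 804 and 974 in *Mettl14* KO (log2 fold change -0.73 ± 0.29, unadjusted p = 0.0231 from the edgeR fit, adjusted p = 0.354). They were 1768 and 1732 in RBC against 873 and 1012 in *Mettl3* KO (-0.89 ± 0.29, unadjusted p = 0.00761 from the edgeR fit, adjusted p = 0.197). Neither knockout overlapped its control. With the block that had a term each for input and IP, chosen after seeing the data, Eed passed in both knockouts (adjusted p = 0.0270 in *Mettl14* KO and 0.00803 in *Mettl3* KO). It also passed with only the libraries compared in the fit (0.0194 and 0.00487), but not with a plain replicate block. Over 13 alternatives the adjusted p ranged from 0.0194 to 0.907 and from 0.00487 to 0.812.

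As fitted, 0 of 10 Polycomb genes passed in the input of *Mettl14* KO against 0.398% of all features, and 0 of 10 in *Mettl3* KO against 0.760%. At an unadjusted p under 0.05 there was 1 of 10, Eed, in each, and 2389 and 2638 features. DESeq2 called 0 of 10 in both, and 416 and 486 features. Ezh2 was -0.31 ± 0.42 in the input of *Mettl14* KO and -0.50 ± 0.42 in *Mettl3* KO, and Jarid2 was -0.33 ± 0.27 and -0.17 ± 0.27. The Ring1 rise of RNA-seq was not seen in the input of *Mettl14* KO, where Ring1 was at -0.30 ± 0.36 (95% confidence interval -1.07 to 0.46). That interval includes the RNA-seq value of 0.44. The Cbx7 rise was not seen there either, with Cbx7 at -0.31 ± 0.31 (95% confidence interval -0.98 to 0.36). That interval too includes the RNA-seq value, 0.13 for Cbx7.

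**Figure D4:**
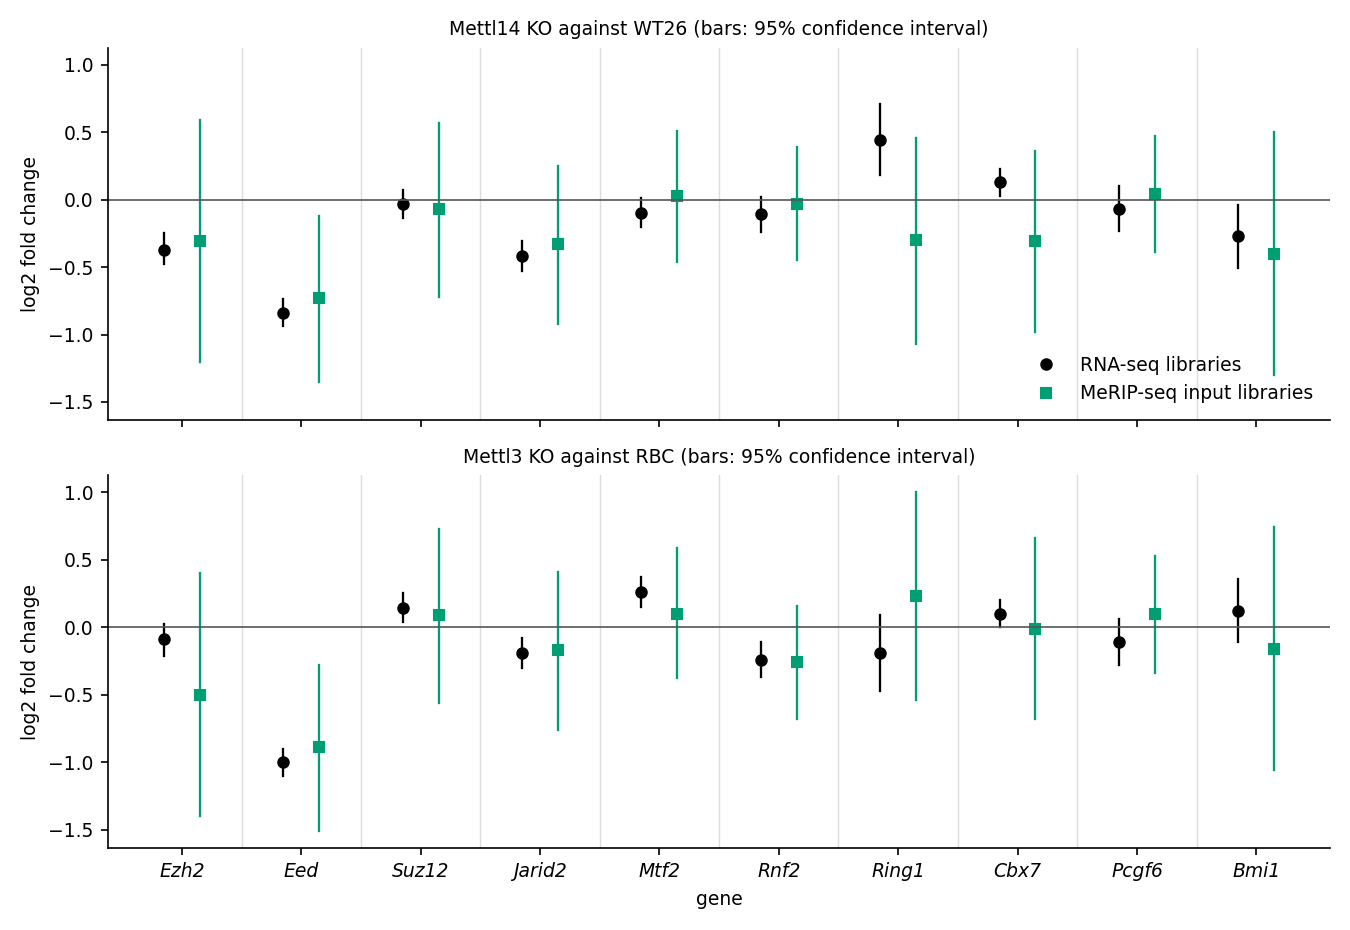
Log2 fold change with its 95% confidence interval for each Polycomb gene in the RNA-seq libraries (circles) and the MeRIP-seq input libraries (squares), for *Mettl14* KO against WT26 (top) and *Mettl3* KO against RBC (bottom). Eed is below 0 in both kinds of library and both knockouts, and the intervals of the input libraries are several times wider.

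The lists of other subunits of the same complexes are read against all genes, of which *Mettl14* KO had 25.5% higher and 27% lower, against 25.2% and 28.1% for *Mettl3* KO. Of 9 other PRC2 genes tested, 3 were higher and 4 lower in *Mettl14* KO (median log2 fold change 0.03), and 5 higher and 3 lower in *Mettl3* KO (0.24). Ezh1, the alternative methyltransferase to Ezh2, rose from 347 and 431 normalized counts in WT26 to 739 and 773 in *Mettl14* KO (0.96 ± 0.093, adjusted p = 1.11e-07). It rose from 304 and 347 in RBC to 447 and 470 in *Mettl3* KO (0.49 ± 0.099, adjusted p = 0.000415). Lcorl, whose locus encodes a PRC2 partner, rose by 0.84 ± 0.053 and 1.18 ± 0.054 (adjusted p = 4.94e-10 and 8.20e-12). Phf19, which like Mtf2 is a Polycomb-like protein, had log2 fold changes of -0.71 and -1.24 (adjusted p = 7.03e-06 and 7.22e-08). Aebp2, a partner found with Jarid2, fell in *Mettl14* KO from 3136 and 3045 to 1740 and 1853 (-0.78 ± 0.050, adjusted p = 5.56e-10). Aebp2 went the other way in *Mettl3* KO (0.24, adjusted p = 0.000488).

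Of 25 other PRC1 genes, 10 were higher and 7 lower in *Mettl14* KO (median 0.01) and 9 higher and 3 lower in *Mettl3* KO (0.14). Kdm2b, which brings a variant PRC1 to unmethylated CpG islands, fell from 1735 and 1791 in WT26 to 858 and 835 in *Mettl14* KO (-1.06 ± 0.056, adjusted p = 4.97e-11). Its log2 fold change was -0.17 in *Mettl3* KO (adjusted p = 0.0143). Scml2, a Polycomb protein with roles in the germline, had 169 and 159 counts in WT26 and 1973 and 2063 in *Mettl14* KO (3.62 ± 0.071, adjusted p = 3.24e-16). It went the other way in *Mettl3* KO, from 1235 and 1146 in RBC to 710 and 705 (-0.75 ± 0.060, adjusted p = 1.05e-08), and RBC libraries stood above WT26 libraries. Bcorl1 rose in both knockouts (0.84 ± 0.15 and 1.26 ± 0.17, adjusted p = 0.000134 and 4.82e-06).

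Among 10 PR-DUB genes, which encode the enzyme that removes H2A ubiquitin and its partners, 4 were higher and 3 lower in *Mettl14* KO and 5 higher and 2 lower in *Mettl3* KO, with Asxl3 up in both (0.67 ± 0.14 and 0.70 ± 0.14, adjusted p = 0.000584 and 0.000511). Of the 3 H3K27 demethylase genes, Kdm6a and Kdm6b were lower in *Mettl14* KO (-0.34 ± 0.050 and -0.38 ± 0.12, adjusted p = 1.84e-05 and 0.0116) and higher in *Mettl3* KO (0.16 ± 0.050 and 0.28 ± 0.11, adjusted p = 0.0113 and 0.0456). The Y-linked Uty was higher in both knockouts (0.84 ± 0.061 and 2.46 ± 0.11, adjusted p = 3.03e-09 and 3.31e-12), with 1326 and 1236 counts in WT26 but 69.0 and 66.1 in RBC. The Trithorax KMT2 genes, which act against Polycomb, split into 3 higher and 4 lower of 9 in *Mettl14* KO and 4 and 4 of 9 in *Mettl3* KO. Ash2l and Dpy30, shared subunits of the KMT2 complexes, fell in both, with log2 fold changes of -0.44 and -1.06 for Ash2l (adjusted p = 3.45e-07 and 4.92e-12). Kmt2c and Kmt2d of the same list rose in both. Kmt2c was at 0.58 and 0.28 (adjusted p = 6.20e-08 and 0.000257) and Kmt2d at 0.37 and 1.05 (0.0125 and 5.46e-07).

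**Figure D5:**
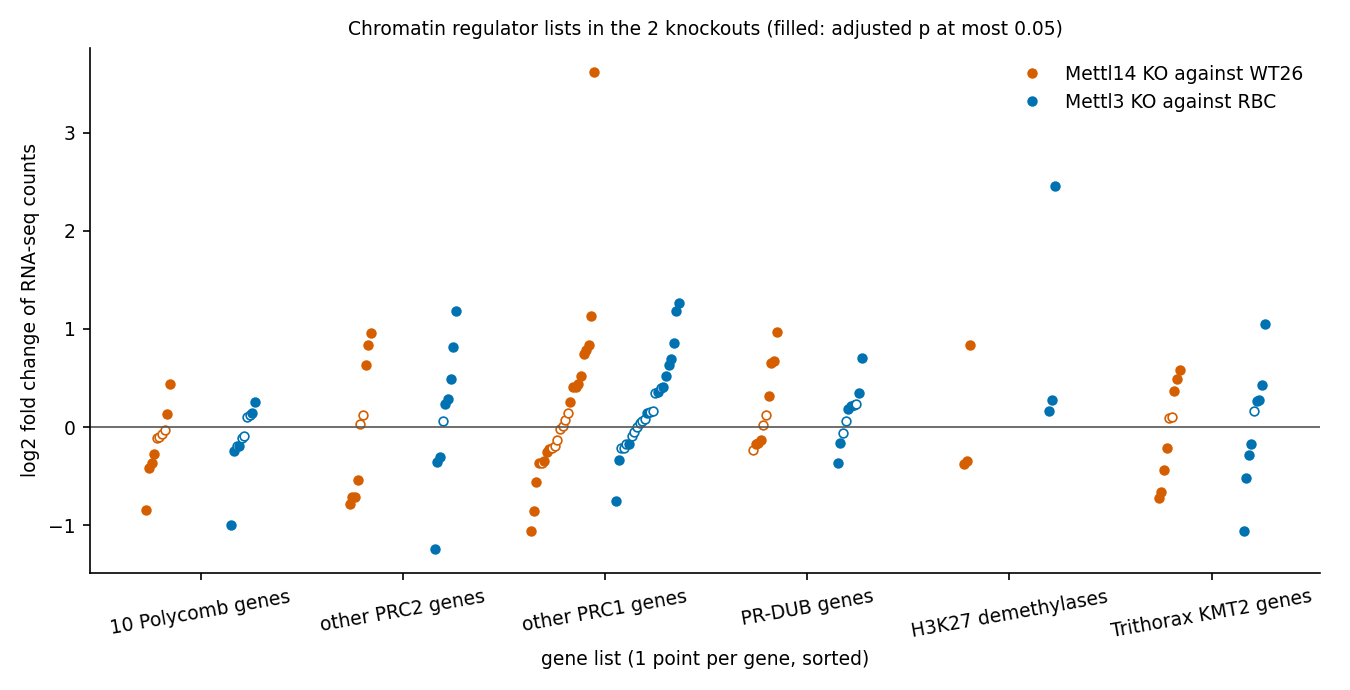
Log2 fold change of RNA-seq counts for each tested gene of 6 lists of chromatin regulators in *Mettl14* KO against WT26 and *Mettl3* KO against RBC, filled where the adjusted p was at most 0.05. Each list holds genes above and below 0 in *Mettl14* KO, and the highest point is Scml2 at 3.62.

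In MeRIP-seq, the shares of all features enriched were 14.5% for WT26, 11.9% for *Mettl14* KO, 13.4% for RBC, 2.54% for *Mettl3* KO. Of the 9 other PRC2 genes, 1 was enriched in each of the 4 lines. Of the 25 other PRC1 genes 5 were enriched in WT26, *Mettl14* KO and RBC each and 0 in *Mettl3* KO, with medians of 0.43, 0.47, 0.40 and 0.02. Of the 10 PR-DUB genes 2 were enriched in WT26 and RBC each, 1 in *Mettl14* KO and 0 in *Mettl3* KO. Of the 9 KMT2 genes 3 were enriched in RBC and 1 in each other line, and none of the 3 H3K27 demethylase genes was enriched in any line.

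Most genes that PRC2 and PRC1 are known to silence did not pass the filter on low counts. Of 39 Hox genes only 5 passed the filter, with 1 higher and 3 lower in *Mettl14* KO and 2 higher and 1 lower in *Mettl3* KO. Of 34 other Polycomb targets 10 were tested, with 4 higher and 2 lower in *Mettl14* KO and 3 higher and 2 lower in *Mettl3* KO. Among all genes, 25.5% were higher and 27% lower in *Mettl14* KO, and 25.2% higher and 28.1% lower in *Mettl3* KO. Pax6, a transcription factor of later development, rose in both knockouts. It went from 20.8 and 23.6 normalized counts to 91.1 and 81.8 in *Mettl14* KO (1.96 ± 0.22, adjusted p = 6.19e-07) and from 73.6 and 62.1 to 168 and 144 in *Mettl3* KO (1.21 ± 0.16, adjusted p = 5.12e-06). Tbx3, a target that ES cells express, fell in both (-0.99 ± 0.062 and -0.70 ± 0.063, adjusted p = 4.24e-10 and 5.07e-08). Of 8 primitive endoderm markers tested, 6 were higher and 1 lower in *Mettl14* KO, and 0 higher and 4 lower in *Mettl3* KO. Of 7 neural markers tested, Pax6 among them, 3 were higher and 2 lower in *Mettl14* KO, and 2 higher and 2 lower in *Mettl3* KO. Lama1, a laminin gene, made up most of the summed count of the primitive endoderm markers, at 11274 and 11271 for WT26, 3894 and 3960 for *Mettl14* KO, 9795 and 9900 for RBC, 2829 and 2761 for *Mettl3* KO. That sum was 4434 to 4493 in *Mettl14* KO against 11416 to 11431 in WT26, and 2939 to 2975 in *Mettl3* KO against 10020 to 10123 in RBC. Cubn, another marker of the list, stood higher in *Mettl14* KO than in WT26, at 202 and 210 against 41.6 and 34.4. Lama1 and Cubn were chosen after their values were seen. The part of these markers in the levels of the targets was not tested.

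Over the 8 RNA-seq libraries the gene most like Eed among 51 other tested genes of the Polycomb lists was Rbbp4, a histone-binding PRC2 subunit (Pearson r = 0.952 on log2 counts). Jarid2 was most like Bcor (0.936), Ezh2 like Usp7 (0.933) and Cbx7 like Auts2 (0.927). Bmi1 had the weakest best match, Mga (0.679). The 8 libraries are 2 replicates of 4 lines, so these values describe which genes differed between the lines in parallel.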

How the data were processed

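The authors deposited raw counts per gene for RNA-seq and counts per gene and repeat subfamily for MeRIP-seq. Per the labels and the study's methods, reads were trimmed with cutadapt 1.8.1 and aligned to GRCm38 with STAR 2.6.0c, and MeRIP-seq counts came from TEtranscripts. The tool that counted RNA-seq reads, and whether it used strand, are not given in the sources used here. Libraries were made with a stranded kit from nuclear RNA that the labels call total RNA. The 10 genes and the lists were chosen with earlier results of these data known.

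Counts were filtered with filterByExpr, scaled with DESeq2 size factors and tested with edgeR 4.0.16 (quasi-likelihood test, R 4.3.3), all groups of an assay in 1 fit, with Benjamini-Hochberg adjustment over 17021 genes in RNA-seq and 22621 features in MeRIP-seq. Normalized counts are counts divided by size factors. A gene counted as enriched in the IP where its log2 fold change exceeded 1 and its adjusted p did not exceed 0.05. The code was tested on simulated data. Alternatives were DESeq2 1.42.0, TMM, library size, no filter, at least 10 counts in every library, a replicate block, each library left out, and a fit of only the libraries compared. Of the other lists, named genes were at most the 3 largest rises and 3 largest falls per knockout among genes past the threshold, with a mean of at least 50 counts and no overlap. Overlapping genes on the other strand were chosen after their values were seen.

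In MeRIP-seq, libraries of the same replicate number deviated together (correlations 0.25 to 0.45 for input and 0.60 to 0.81 for IP, each over 0.1). The main fit nonetheless had no replicate block, and values given as fitted come from it. Only the alternatives with a block took the numbers as paired. The block named in the text, with a term each for input and IP, was chosen after seeing the data. In RNA-seq the correlations ran from -0.17 to 0.45, so the numbers were not taken as paired. GGACT was searched in 1 GENCODE M21 transcript per gene with Python 3.11.15.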

Additional observations from a re-analysis of the deposited data

Results flagged for a closer look

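For 4 Polycomb genes the change in *Mettl3* KO against RBC differed from that in *Mettl14* KO against WT26, by the edgeR quasi-likelihood test of the difference itself (adjusted p at most 0.05). The difference in log2 fold change was 0.27 for Ezh2 (adjusted p = 0.00955), whose fall passed the threshold in *Mettl14* KO and whose value of -0.09 in *Mettl3* KO did not. It was 0.23 for Jarid2 (0.0186), which fell in both, and 0.36 for Mtf2 (0.000684), which rose in *Mettl3* KO. For Ring1, which rose in *Mettl14* KO, it was -0.64 (0.00942). Mtf2 passed on leaving out any library, with DESeq2 and under each scaling. Ezh2 was lost without *Mettl14* KO replicate 1 (adjusted p = 0.0722) or RBC replicate 2 (0.0512), with a range of 0.000408 to 0.0722 over 15 alternatives. Jarid2 was lost without WT26 replicate 1 (0.0611), *Mettl14* KO replicate 2 (0.108) or RBC replicate 1 (0.0526), with a range of 0.000235 to 0.108. Ring1 was lost without RBC replicate 2 (0.0585) and with DESeq2 (0.0644), with a range of 0.00330 to 0.0644. In the input libraries, where this difference was not tested, the order of the knockouts was opposite for Ezh2 and Ring1. Ezh2 was at -0.31 ± 0.42 in *Mettl14* KO and -0.50 ± 0.42 in *Mettl3* KO. Ring1 was at -0.30 ± 0.36 and 0.23 ± 0.36. Jarid2 (-0.33 ± 0.27 and -0.17 ± 0.27) and Mtf2 (0.03 ± 0.23 and 0.10 ± 0.23) kept the order of RNA-seq. None of these input values passed as fitted. The knockouts came from different parent lines, so the gene knocked out and the parent line cannot be told apart.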

How the results depend on the processing

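No called Polycomb gene reversed its direction under any alternative run. In RNA-seq the 6 Polycomb genes called in *Mettl14* KO became 3 to 5 on leaving out 1 library (3 without WT26 replicate 1), and the 5 called in *Mettl3* KO became 4 or 5. For RBC against WT26 the count was 4 on leaving out any of the libraries tried, and for the difference between knockouts 3 to 6 against 4. Requiring a log2 fold change over 1 as well left 0 in each of these 4 comparisons. The replicate block gave 6, 5, 4 and 6. In MeRIP-seq, library size scaling gave 3, 2 and 3 enriched Polycomb genes in WT26, *Mettl14* KO and RBC against 1 each, with Cbx7 and Bmi1 added, and moved the median of all features to 0.359 to 0.476. The share of all features enriched under that scaling is not given for these lines, so the added calls are not read as particular to the Polycomb genes. Leaving out 1 replicate gave 0 in WT26 and 0 to 1 in *Mettl14* KO and RBC. In the input libraries, the block with a term each for input and IP gave 1 in each knockout against 0, and a fit of only the libraries compared gave 1 in *Mettl14* KO and 2 in *Mettl3* KO. Over all features, the 575 enriched in *Mettl3* KO became 1117 with DESeq2 and 2522 by library size, and the 90 and 172 called in the input became 416 and 486 with DESeq2 and 1473 and 1939 with that block. The cause of these moves was not tested. With 2 replicates per group the MeRIP-seq spread (common biological coefficient of variation 0.273, against 0.0625 in RNA-seq) limits what can be seen there.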
